A study of Homo sapiens with 6 samples.

Results

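Interferon-stimulated antiviral genes are the effectors that a cell switches on when interferon or viral nucleic acid is sensed. A list of 36 such genes, chosen by function and named by symbol, was followed through 6 RNA sequencing libraries of THP-1 cells. Earlier results of these data were known when the list was chosen. All 36 had a row among the 26347 genes of the count table, and all 36 passed the filter on low counts. THP-1 is an established human monocytic leukaemia line, grown here in RPMI medium with fetal bovine serum. The cells of 3 libraries received a miR-125a-5p mimic, a synthetic double-stranded RNA that acts as the microRNA, and those of the other 3 received a negative control microRNA mimic, with RNA taken 24 h later. Every library was transfected, so the effect of transfection itself on these genes cannot be told apart from the level of the line. The series title speaks of macrophages, whereas the sample labels name monocytic cells and no differentiation step. The design text says that transfection was in triplicate, and nothing says whether those were separate cultures, so the spread behind each p-value may be technical only.

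Type I interferon binds the receptor pair IFNAR1 and IFNAR2, whose kinases JAK1 and TYK2 phosphorylate STAT2 among others. STAT2 and IRF9 act in a complex that binds the interferon-stimulated response element, a short repeat of GAAA in the promoters of the genes it switches on. Their products sense viral RNA, block its translation, cut it, or hold viruses back at entry and budding, and USP18 dampens the receptor again. MicroRNAs act from the other side, by pairing bases 2 to 8 (the seed) with sites in the 3′ untranslated region (3′ UTR) of messenger RNAs, which lowers their stability or translation.

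The libraries held 8256149 to 9356861 counts in the miR-125a-5p group and 8423228 to 10257791 in the control group. Control library 1 was the deepest of all and miR-125a-5p library 3 the shallowest. Levels are given as CPM, counts scaled to library size, here with the trimmed mean of M-values. Control library 1 stood apart on principal component 1 of the log2 values (38.2, against -16.3 to -1.14 in the other 5), and miR-125a-5p library 3 on component 2 (-31.1, against -5.24 to 21.5). The THP-1 monocytic markers fixed for this work (15 genes, none at 0) summed to 3560 to 3806 CPM in miR-125a-5p libraries and 3644 to 3835 CPM in control libraries. The sums of 5 T cell, 5 epithelial and 5 fibroblast markers were at most 2.93 CPM with the miR-125a-5p mimic and at most 3.68 CPM with the control mimic. The T cell genes CD3E and CD28 and the keratins KRT18 and KRT19 were at 0 in all 6. A B cell list of 5 genes summed to 44.7 to 62.5 CPM with the miR-125a-5p mimic and 54.1 to 86.0 CPM with the control mimic, nearly all of it from PAX5, while MS4A1 and CD79A had 2 counts each over all libraries. The part of these B cell genes in the results on interferon-stimulated genes was not tested.

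The mature microRNA is printed with its seed in capitals, because every site searched is the complement of those letters (RefSeq, GRCh38.p14, chr19:51693268-51693291, plus strand).
hsa-miR-125a-5p: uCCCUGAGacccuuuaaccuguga
The full site has 8 bases, CTCAGGGA. The 7mer-m8 is CTCAGGG, the 7mer-A1 is TCAGGGA and the shared 6-base core is TCAGGG. In the longest annotated 3′ UTR of each gene (GENCODE release 29, GRCh38, a different build from that of the counts), 14 of 36 members held at least the core, or 38.9%, against 37.5% of 12393 tested genes with a searched 3′ UTR. The best match was an 8mer in 1 member (2.78%, against 6% of genes), a 7mer-m8 in 5 (13.9% against 10.4%), a 7mer-A1 in 5 (13.9% against 8%) and the core alone in 3 (8.33% against 13%). The other 22 members had no match in this window. The median 3′ UTR searched was 1188 bases long in the members and 1378 in all searched genes.

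The member with the full site and the 5 with a 7mer-m8 are shown with up to 30 bases of target site, the matching letters in capitals.
EPSTI1: ctttggaagctCTCAGGGAagttggtgtca
STAT2: tacttggagggCTCAGGGcagtggcttctt
OAS3: atatccaagagCTCAGGGccagttctggtg
PARP14: gatttgattaaCTCAGGGcaaggctgaata
HERC6: cctctgagagaCTCAGGGtgggctttctca
TRIM22: agtcatactggCTCAGGGcccaccgctaat
On GRCh38 the matches lie at chr13:42886875-42886882 for EPSTI1 and chr12:56343077-56343083 for STAT2, both on the minus strand, and at chr12:112972011-112972017 for OAS3, chr3:122730705-122730711 for PARP14, chr4:88442475-88442481 for HERC6 and chr11:5710041-5710047 for TRIM22 on the plus strand. Each is in the 3′ UTR of the last exon of its transcript. OAS3 also carried a 7mer-A1 and a core match in the same 3′ UTR. The 7mer-A1 class held RSAD2, OASL, IFIT5, PARP9 and XAF1, and the core alone was found in IFIT2, MX2 and USP18.

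What the members share on the promoter side was read from RefSeq windows of 250 bases before to 50 after each annotated gene start (GRCh38.p14), which were given for 29 of 36 members. The motif GAAANNGAAA, searched on both strands as the letters of the interferon-stimulated response element, was found in 18 of 29 windows (62.1%), against 996 of 27305 of all windows (3.65%) and 3.14% of those of tested genes. The palindromic motif TTCNNNGAA, the letters of the interferon-gamma-activated site, was in 8 of 29 (27.6%), against 7.88% of all windows and 6.57% of those of tested genes. The list was chosen as interferon-stimulated, so these shares describe the list and do not bear on the mimic. A match is a run of letters and not a measured binding site, and overlapping matches were counted separately. Other spacings of the repeat were not searched. The windows of OAS1, RSAD2, RIGI, XAF1 and IFI35, counted as without a match, hold GAAA repeats at a closer spacing.

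Windows of 4 members are shown, 5′ to 3′ on the strand of the gene with GAAANNGAAA matches on either strand in capitals. IFI6 and ISG15 are among the 3 members farthest above the other control libraries in control library 1, IFIT1 is the member displaced in both that library and miR-125a-5p library 3, and the log2 fold change of HERC5 hardly moved without control library 1.
IFI6: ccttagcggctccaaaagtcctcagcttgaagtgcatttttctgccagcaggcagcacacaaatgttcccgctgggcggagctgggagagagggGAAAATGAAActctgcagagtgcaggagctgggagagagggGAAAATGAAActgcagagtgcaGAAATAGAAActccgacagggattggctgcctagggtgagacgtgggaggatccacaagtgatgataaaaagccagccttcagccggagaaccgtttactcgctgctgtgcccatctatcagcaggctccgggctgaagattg
ISG15: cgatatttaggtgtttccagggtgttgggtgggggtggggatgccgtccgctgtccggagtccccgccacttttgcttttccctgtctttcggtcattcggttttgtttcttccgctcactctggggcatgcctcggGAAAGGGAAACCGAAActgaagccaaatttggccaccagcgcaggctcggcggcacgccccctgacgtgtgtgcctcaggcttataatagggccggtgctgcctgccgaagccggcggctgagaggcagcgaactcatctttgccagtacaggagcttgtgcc
IFIT1: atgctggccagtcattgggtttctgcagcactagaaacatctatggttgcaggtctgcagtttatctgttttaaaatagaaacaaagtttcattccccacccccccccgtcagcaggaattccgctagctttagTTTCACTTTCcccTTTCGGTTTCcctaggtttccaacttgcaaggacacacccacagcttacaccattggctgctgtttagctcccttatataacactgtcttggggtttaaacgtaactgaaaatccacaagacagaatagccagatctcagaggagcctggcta
HERC5: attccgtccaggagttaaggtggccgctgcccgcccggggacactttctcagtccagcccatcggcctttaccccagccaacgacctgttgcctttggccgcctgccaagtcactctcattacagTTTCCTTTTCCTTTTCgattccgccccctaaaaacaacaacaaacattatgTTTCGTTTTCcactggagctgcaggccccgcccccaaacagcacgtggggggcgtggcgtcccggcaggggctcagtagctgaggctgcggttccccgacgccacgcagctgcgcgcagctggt
The windows lie at chr1:27672143-27672442 (minus strand), chr1:1013247-1013546 (plus strand), chr10:89392373-89392672 (plus strand) and chr4:88456869-88457168 (plus strand). IFI6 held 3 matches, the farthest starting 156 bases before the gene start, and HERC5 3 from 125 bases before it. ISG15 and IFIT1 held 2 each, from 113 and 116 bases before the start. The 18 members with a match had a median log2 fold change of -0.14 (miR-125a-5p over control mimic), and the 11 with a window and no match had -0.13.

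**Figure D1:**
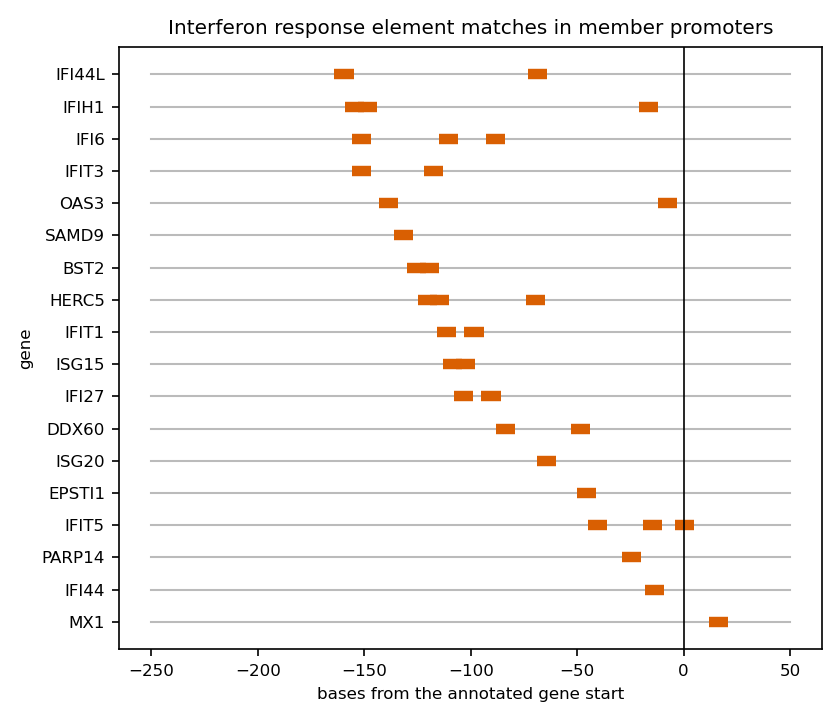
Matches to the interferon-stimulated response element letters (orange bars, 10 bases each) in the promoter windows of the 18 members that held one, by distance in bases from the annotated gene start (vertical line); grey lines are the windows searched. Most matches lie before the start, and the match of MX1 begins at base 12 counted from it.

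Together the 36 genes took 1.72% to 1.93% of all counts in the miR-125a-5p libraries and 1.85% to 2.18% in the control libraries, the highest share being that of control library 1. Between genes, levels are compared as CPM per kilobase of the longest principal transcript (GENCODE 29), averaged over 6 libraries. IFI6 led with 1659.6, followed by OAS2 (474), MX1 (373), PARP14 (297), OAS3 (293) and OAS1 (275), and the lowest were OASL (20.9), ISG20 (20.9) and IFIT5 (10.2). PARP14, OAS3 and OAS1, as well as OASL and ISG20, lie within each other's range over the 6 libraries, so their order is not settled. How reads that match several genes were counted is not stated, and the IFIT, OAS, MX, SAMD9 and IFI44 pairs or families are related in sequence, so their split is uncertain. In a bulk library, fewer cells expressing a gene and less RNA per cell cannot be told apart.

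The first comparison asked whether the members differed after the miR-125a-5p mimic. None passed: in edgeR's quasi-likelihood test, with p-values adjusted over the 14731 genes that were tested, 0 of 36 members were called lower and 0 higher, where 0.0272% of all tested genes were called lower and 0% higher. At an unadjusted p under 0.05, 6 members were lower (IFI27, ISG20, IFI6, IRF7, RSAD2 and OAS1) and 0 higher, against 3.22% and 2.69% of all tested genes. DESeq2, limma voom and edgeR's likelihood ratio test also called 0 members. All the same, the log2 fold changes lay on one side: 36 of 36 were negative, from -0.49 for ISG20 to -0.023 for HERC6, with a median of -0.15. Among all tested genes 49.8% were negative with a median of 0.0011, and among the 4393 with a mean of at least 50 CPM 45.8%. Genes that respond to one signal vary together between libraries, so these counts are not 36 separate observations.

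Separation of the groups library by library was less common. In 7 members (IRF7, IFIT5, OAS1, HERC5, MX1, IFI27 and XAF1) every miR-125a-5p library lay below every control library, as in 5.9% of all tested genes, and in 0 members every one lay above, as in 5.31%. The median member, as log2 CPM minus its mean over the 6 libraries, stood at 0.011, -0.019 and -0.19 in miR-125a-5p libraries 1, 2 and 3 and at 0.16, 0.094 and -0.039 in control libraries 1, 2 and 3. Control library 3 thus lay below miR-125a-5p libraries 1 and 2, and the ends of the range were miR-125a-5p library 3 and control library 1.

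**Figure D2:**
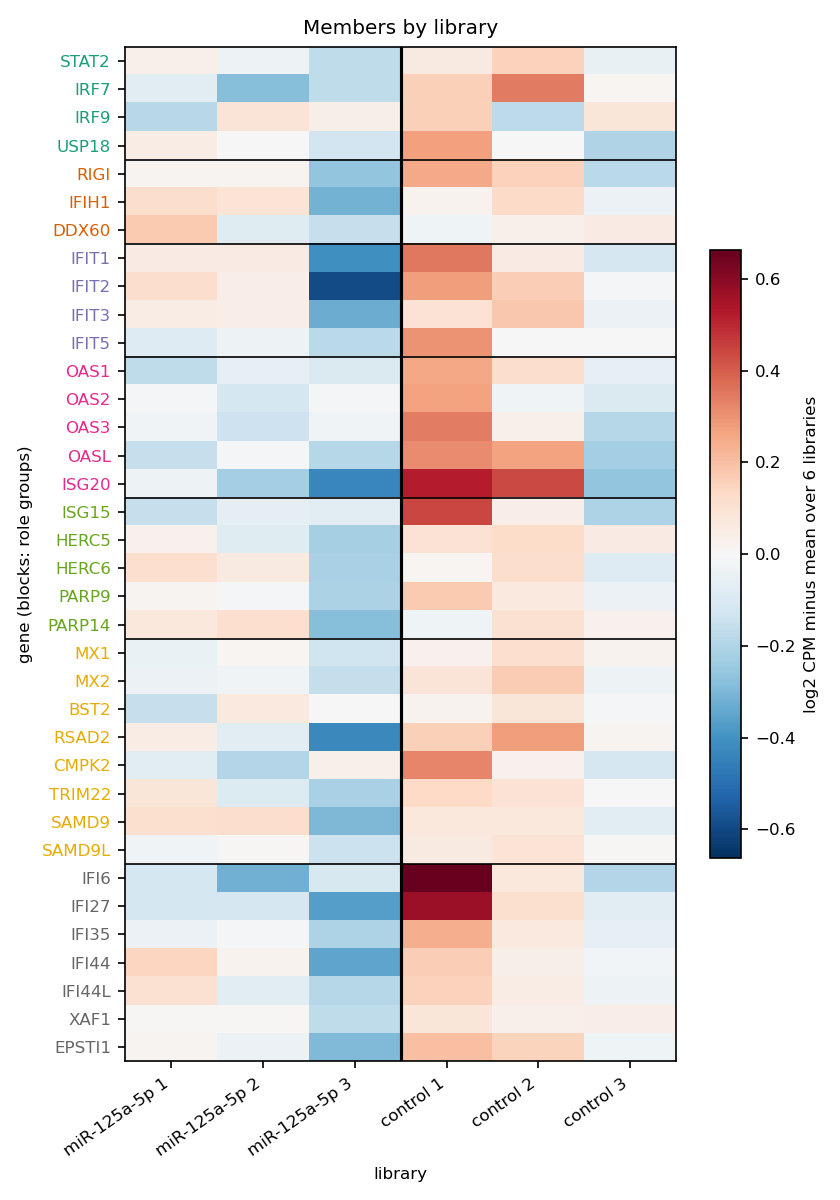
Each row is a member, blocked by role, and each column a library, with the miR-125a-5p mimic left of the thick line and the control mimic right of it; colour is log2 CPM minus the mean over the 6 libraries. The column of control library 1 is the reddest for OAS, ISG15, IFI6 and IFI27, and that of miR-125a-5p library 3 the bluest for the IFIT genes, RSAD2 and IFI44.

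Among the regulators, IRF7, the transcription factor that drives further interferon production, was the 1 gene whose groups did not overlap. IRF7 had 49.7, 42.8 and 46.5 CPM in miR-125a-5p libraries 1 to 3, against 58.3, 66.3 and 52.7 CPM in control libraries 1 to 3. Its log2 fold change was -0.35 (SE 0.12), with an edgeR adjusted p of 0.615, and it was -0.36 without control library 1. STAT2, which activates transcription in the complex that binds the response element, had 471, 450.4 and 409.7 CPM with the miR-125a-5p mimic and 480.3, 511 and 446 CPM with the control mimic. Control library 3 lay inside the range of the miR-125a-5p libraries, and the log2 fold change of STAT2 was -0.11 (SE 0.089), edgeR adjusted p = 0.919. It was -0.11 without control library 1 and -0.059 without miR-125a-5p library 3. IRF9, which gives that complex its DNA contact, averaged 70.5 ± 6.82 CPM with the miR-125a-5p mimic and 72.6 ± 8.46 CPM with the control mimic (SD, n = 3 each). USP18, the protease that strips ISG15 and quiets the receptor, averaged 149 ± 9.39 CPM with the miR-125a-5p mimic and 155 ± 25.8 CPM with the control mimic (SD, n = 3 each). Both overlapped between the groups, and without control library 1 their log2 fold changes of -0.043 and -0.063 became 0.024 and 0.069.

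Each of the 3 cytosolic sensors of viral RNA was lowest in miR-125a-5p library 3. RIGI, which recognises triphosphate RNA ends, had 357, 356 and 293 CPM in miR-125a-5p libraries 1 to 3, against 418, 391 and 311 CPM in control libraries 1 to 3, with a log2 fold change of -0.16 (SE 0.11) (edgeR adjusted p = 0.898). IFIH1, the sensor MDA5 of long double-stranded RNA, had 541, 531 and 403 CPM with the miR-125a-5p mimic and 508, 545 and 485 CPM with the control mimic. Only miR-125a-5p library 3 lay below the control libraries for IFIH1, and its log2 fold change of -0.060 (SE 0.10) became 0.062 without that library. DDX60, a helicase reported to assist these sensors, averaged 164 ± 20.1 CPM with the miR-125a-5p mimic and 168 ± 5.04 CPM with the control mimic (SD, n = 3 each), and its highest library was miR-125a-5p library 1.

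The IFIT proteins bind the ends of foreign RNA and keep it from the ribosome, and their 4 genes had a median log2 fold change of -0.20. IFIT2 had 233, 222 and 143 CPM in miR-125a-5p libraries 1 to 3, against 261, 241 and 213 CPM in control libraries 1 to 3, with a log2 fold change of -0.26 (SE 0.13) and an edgeR adjusted p of 0.843. IFIT1 had 364, 364 and 264 CPM with the miR-125a-5p mimic and 447, 364 and 325 CPM with the control mimic, with -0.20 (SE 0.12) and an edgeR adjusted p of 0.884. IFIT3, which binds and steadies IFIT1, was the most abundant of the family in CPM, at 559, 557 and 431 CPM in miR-125a-5p libraries 1 to 3, against 578, 612 and 527 CPM in control libraries 1 to 3. In all 3 genes miR-125a-5p library 3 was the lowest library, while miR-125a-5p libraries 1 and 2 lay among the control values. Without that library the log2 fold changes were -0.072 for IFIT2, -0.060 for IFIT1 and -0.040 for IFIT3. IFIT5, with its 7mer-A1, had 38.3, 39.7 and 35.8 CPM with the miR-125a-5p mimic and 49.8, 40.6 and 40.5 CPM with the control mimic. Its groups did not overlap, by a margin of under 1 CPM between the nearest libraries, and its log2 fold change of -0.20 (SE 0.13) (edgeR adjusted p = 0.884) became -0.10 without control library 1.

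The 2-5A synthetases make the short oligoadenylates that signal the decay of RNA. OAS1 had 409, 443 and 430.4 CPM in miR-125a-5p libraries 1 to 3, against 550.5, 500.4 and 444 CPM in control libraries 1 to 3. The groups did not overlap, but miR-125a-5p library 2 (443.35 CPM) and control library 3 (444.38 CPM) were almost level. The log2 fold change of OAS1, -0.22 (SE 0.092) (edgeR adjusted p = 0.767), became -0.15 without control library 1. OAS3, the member of this group with most counts, had 1925, 1777 and 1927 CPM with the miR-125a-5p mimic and 2474, 2000.3 and 1715 CPM with the control mimic. Its control libraries spanned both sides of the miR-125a-5p libraries, and the log2 fold change of -0.14 (SE 0.10) became 0.012 without control library 1. OAS2 averaged 1649.7 ± 67.2 CPM with the miR-125a-5p mimic and 1776 ± 241 CPM with the control mimic (SD, n = 3 each) and likewise went to 0.0066 from a log2 fold change of -0.11 when that library was left out. OASL, a relative that makes no 2-5A and carries a 7mer-A1, had 60.6, 66.7 and 59.2 CPM with the miR-125a-5p mimic and 83.7, 81.2 and 57.8 CPM with the control mimic, with -0.26 (SE 0.13) and an edgeR adjusted p of 0.843. ISG20, an exonuclease that degrades single-stranded RNA, had the most negative log2 fold change of all members, -0.49 (SE 0.16) with an edgeR adjusted p of 0.586. It had 36.6, 32.1 and 27.8 CPM in miR-125a-5p libraries 1 to 3, against 53.8, 50.8 and 31.3 CPM in control libraries 1 to 3, so control library 3 lay among the miR-125a-5p libraries. In this group control library 1 was the highest library for 5 of 5 genes, and miR-125a-5p library 3 the lowest for 1.

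ISG15 is a ubiquitin-like protein that is attached to other proteins after interferon. The gene had 125, 133 and 132 CPM in miR-125a-5p libraries 1 to 3, against 188, 142 and 120.1 CPM in control libraries 1 to 3: only control libraries 1 and 2 exceeded the miR-125a-5p libraries. Its log2 fold change of -0.21 (SE 0.12) (edgeR adjusted p = 0.871) became -0.020 without control library 1. HERC5, the main ligase for ISG15 in human cells, had 261, 242 and 219 CPM with the miR-125a-5p mimic and 272, 278 and 265 CPM with the control mimic, with no overlap, a log2 fold change of -0.17 (SE 0.091) and an edgeR adjusted p of 0.857. HERC6, a ligase for ISG15 in mouse, carries a 7mer-m8 and had 191, 185 and 153 CPM with the miR-125a-5p mimic and 178, 192 and 167 CPM with the control mimic. Its log2 fold change of -0.023 (SE 0.10) was the smallest in size among the 36. The ADP-ribosyltransferases PARP9 and PARP14 both carry a seed match, a 7mer-A1 and a 7mer-m8. PARP9 had 611, 598 and 521 CPM with the miR-125a-5p mimic and 680.2, 630.0 and 585 CPM with the control mimic, with -0.13 (SE 0.090), and PARP14 had 2455, 2528 and 1927 CPM in miR-125a-5p libraries 1 to 3, against 2292, 2513 and 2388 CPM in control libraries 1 to 3, with -0.058 (SE 0.093). For PARP14 miR-125a-5p library 1 lay inside the control range, library 2 just above it and library 3 below them all.

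Of the 8 restriction factors, RSAD2 (viperin), which makes a chain-terminating nucleotide, had the smallest p. It had 563, 519 and 405 CPM in miR-125a-5p libraries 1 to 3, against 608, 660.3 and 552 CPM in control libraries 1 to 3, with only miR-125a-5p library 1 overlapping the control range. The log2 fold change was -0.29 (SE 0.10), edgeR adjusted p = 0.655. It was -0.29 without control library 1 and -0.17 without miR-125a-5p library 3. CMPK2, its neighbour on chromosome 2 and a mitochondrial nucleotide kinase, was highest of its group in miR-125a-5p library 3, at 336, 309 and 362 CPM with the miR-125a-5p mimic and 443, 361 and 328 CPM with the control mimic. Of the dynamin-like GTPases, MX1 had 1253, 1302 and 1177 CPM in miR-125a-5p libraries 1 to 3, against 1315, 1397 and 1314 CPM in control libraries 1 to 3, a narrow spread with no overlap, and a log2 fold change of -0.11 (SE 0.082) (edgeR adjusted p = 0.908). MX2, which blocks the nuclear import of retroviruses, had 576, 583 and 531 CPM with the miR-125a-5p mimic and 627, 665 and 579 CPM with the control mimic, with -0.15 (SE 0.087) and an edgeR adjusted p of 0.882. TRIM22, a ubiquitin ligase with a 7mer-m8, had 402, 358 and 328 CPM with the miR-125a-5p mimic and 417, 408 and 381 CPM with the control mimic, with -0.15 (SE 0.092). BST2, which tethers budding virions, averaged 130.4 ± 9.88 CPM with the miR-125a-5p mimic and 136 ± 4.53 CPM with the control mimic, and SAMD9, a poxvirus restriction factor, 514 ± 79.4 CPM with the miR-125a-5p mimic and 528 ± 29.6 CPM with the control mimic (SD, n = 3 each). SAMD9L, its relative, had 1002, 1024 and 921 CPM with the miR-125a-5p mimic and 1062, 1083 and 1023 CPM with the control mimic. Besides RSAD2, the groups overlapped in CMPK2, MX2, TRIM22, BST2, SAMD9 and SAMD9L.

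The 2 members farthest above the rest in control library 1 were IFI6 and IFI27. IFI6, a membrane protein that limits flaviviruses, had 1225, 1065 and 1235 CPM in miR-125a-5p libraries 1 to 3, against 2104, 1397 and 1159 CPM in control libraries 1 to 3. Control library 1 lay far above all others and control library 3 inside the miR-125a-5p range, and the log2 fold change of -0.40 (SE 0.13) (edgeR adjusted p = 0.586) became -0.12 without control library 1. IFI6 was the 1 member called in any fit. It was called lower without control library 3 (log2 fold change -0.58, edgeR adjusted p = 0.0496), where 0.0933% of genes were, and without the filter on low counts (edgeR adjusted p = 0.00209), where 0.193% were, with a range of 0.00209 to 0.992 over 16 fits. IFI27, a mitochondrial protein, had 83.3, 83.7 and 70.2 CPM with the miR-125a-5p mimic and 134, 97.2 and 85.7 CPM with the control mimic, with no overlap of the groups. Its log2 fold change of -0.42 (SE 0.13) (edgeR adjusted p = 0.535) became -0.21 without control library 1. EPSTI1, the member with the full seed site, had 139, 134 and 112 CPM in miR-125a-5p libraries 1 to 3, against 158, 152 and 135 CPM in control libraries 1 to 3. Control library 3 lay inside the miR-125a-5p range, and its log2 fold change was -0.21 (SE 0.10), edgeR adjusted p = 0.843. XAF1, a pro-apoptotic partner of XIAP with a 7mer-A1, had 492, 491 and 436 CPM with the miR-125a-5p mimic and 517, 500.1 and 504 CPM with the control mimic, with no overlap and a log2 fold change of -0.10 (SE 0.086). IFI35, IFI44 and IFI44L averaged 70.7, 409 and 1114 CPM with the miR-125a-5p mimic and 79.6, 441 and 1201 CPM with the control mimic, with log2 fold changes of -0.17, -0.11 and -0.11 and overlapping groups.

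The medians of members with and without a seed match lay close together. The 14 with at least the core had a median log2 fold change of -0.14 and the 22 with none -0.15; the corresponding medians over all searched genes were -0.016 and 0.015. The 5 with a 7mer-m8 had a median of -0.11 and the 5 with a 7mer-A1 -0.20. ISG20, IFI27, IFI6 and IRF7, with the most negative values, had no match in the window searched. These medians are descriptions without a test.

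The second comparison asked how far control library 1 carried the differences. It was the highest of the 6 libraries in 22 of 36 members, against 21.3% of all tested genes. Without it, 32 members had a negative log2 fold change, as did 49.5% of the 14731 genes tested with all libraries. The members' median went to -0.093, against -0.15 with all libraries. IRF9, USP18, OAS2 and OAS3 turned positive. Other members that moved by over 1.5 times toward 0 without it stood at -0.070 for RIGI (against -0.16 with all 6), -0.061 for IFIT1 (against -0.20 with all 6), -0.16 for OASL (against -0.26 with all 6), -0.079 for PARP9 (against -0.13 with all 6) and -0.040 for CMPK2 (against -0.17 with all 6). The same held for IFI35, SAMD9, IFI44 and IFI44L, at -0.093, -0.018, -0.058 and -0.061 without it, against -0.17, -0.039, -0.11 and -0.11 with all 6. It also held for ISG15, IFI6, IFI27, IFIT5 and OAS1, which went to the values given above (-0.020, -0.12, -0.21, -0.10 and -0.15). DDX60 and PARP14 moved away from 0 by over 1.5 times, to -0.058 and -0.093. Smaller moves away from 0 were seen in IRF7, STAT2, IFIH1, HERC5, HERC6, MX1, BST2 and RSAD2. In 25 members the log2 fold change was closer to 0 without it, as in 45.3% of all tested genes. The number lower at an unadjusted p under 0.05 was 3 (IRF7, RSAD2 and ISG20, background 3.05%), and 0 were called after adjustment (background 0.0266%). IFI27, IFI6 and OAS1 were no longer below that p.

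Its weight differed between members. Control library 1 exceeded the mean of control libraries 2 and 3 by more than 25% in 9 members (background 16.6%), namely USP18, IFIT1, OAS2, OAS3, ISG20, ISG15, CMPK2, IFI6 and IFI27. IFI6 was 1.65-fold, IFI27 1.47-fold, ISG15 1.44-fold and OAS3 1.34-fold that mean (on the log2 scale averaged and turned back), and these 4 log2 fold changes moved most when it was left out. ISG20 was 1.35-fold that mean, above OAS3, but its log2 fold change moved by 0.14, against 0.15 for OAS3. SAMD9L, HERC5, MX2 and STAT2 moved least, to -0.10, -0.18, -0.15 and -0.11, and in them control library 1 was 1.01-fold, 1.00-fold, 1.01-fold and 1.01-fold the mean of the other 2. With 1 library on one side, these distances carry no test. The move of a log2 fold change without control library 1 follows largely by construction from that distance. The distance and the move are therefore not separate observations.

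Another library stood at the opposite end. MiR-125a-5p library 3 was the lowest of the 6 in 25 members, against 17.9% of all tested genes, and 13 members had both control library 1 highest and miR-125a-5p library 3 lowest, against 4.3%. It lay more than 20% below the mean of miR-125a-5p libraries 1 and 2 in 8 members (background 14.2%), which were IFIH1, IFIT1, IFIT2, IFIT3, PARP14, RSAD2, SAMD9 and IFI44. Of these 8, IFIT1 alone was also among the 9 high in control library 1. Without miR-125a-5p library 3 the median was -0.075, and IFIH1, DDX60, HERC6, PARP14, SAMD9 and IFI44 turned positive. The log2 fold change then was -0.12 for HERC5, -0.067 for PARP9, -0.084 for TRIM22, -0.063 for SAMD9L, -0.046 for IFI44L, -0.048 for XAF1, -0.13 for EPSTI1 and -0.071 for RIGI, each over 1.5 times closer to 0 than with all 6 libraries. USP18 likewise went to -0.016 without miR-125a-5p library 3, against -0.063 with all 6 libraries. Without both libraries, which leaves 2 against 2, the median was -0.034 and 26 of 36 members were negative, against 50.1% of all tested genes. The positive ones then were USP18, RIGI, IFIH1, DDX60, IFIT1, HERC6, PARP14, SAMD9, IFI44 and IFI44L. Without both libraries IRF7 was at -0.37, against -0.35 with all 6, while ISG20 was at -0.26, against -0.49, and RSAD2 at -0.17, against -0.29. Both libraries were singled out after their values were seen. Control library 1 was also the deepest library (10257791 counts) and miR-125a-5p library 3 the shallowest (8256149 counts). The part of depth in these patterns was not tested.

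**Figure D3:**
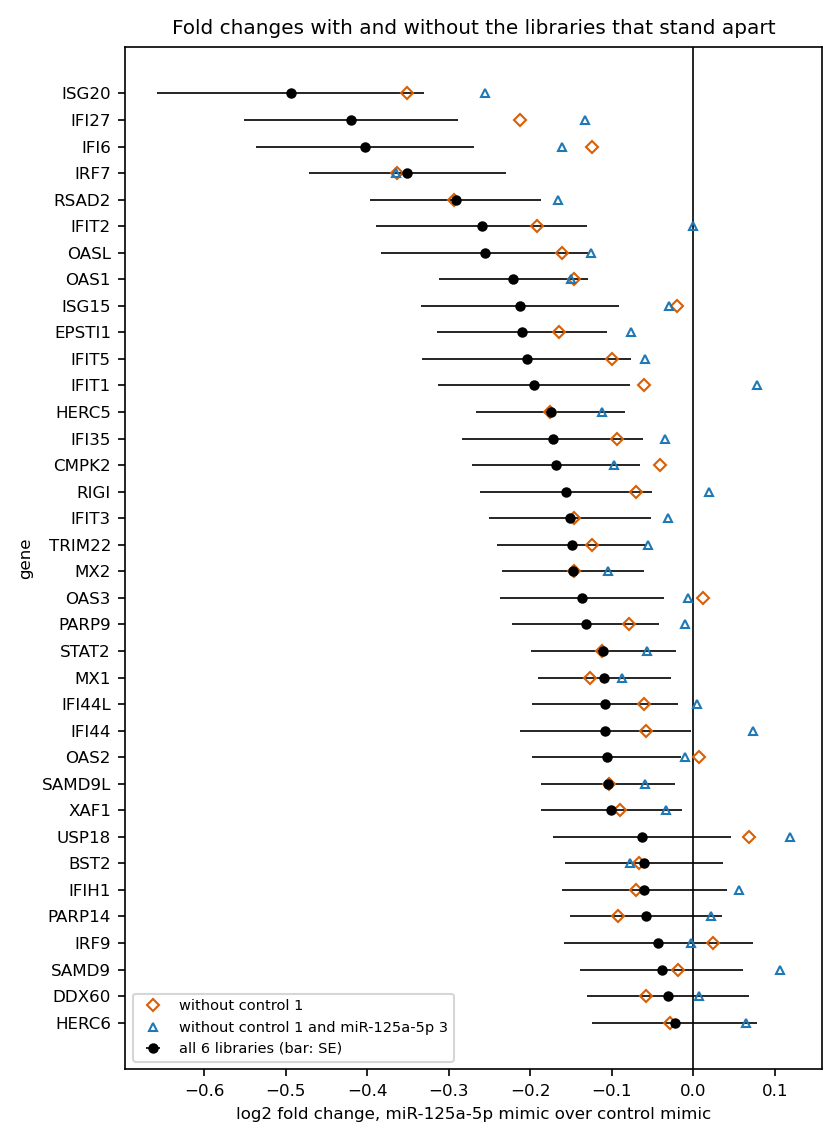
Log2 fold change of each member, miR-125a-5p mimic over control mimic, with all 6 libraries (black, bar of 1 SE), without control library 1 (orange) and without control library 1 and miR-125a-5p library 3 (blue), ordered by the black points. All black points lie left of 0, and 10 blue points lie right of it.

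**Figure D4:**
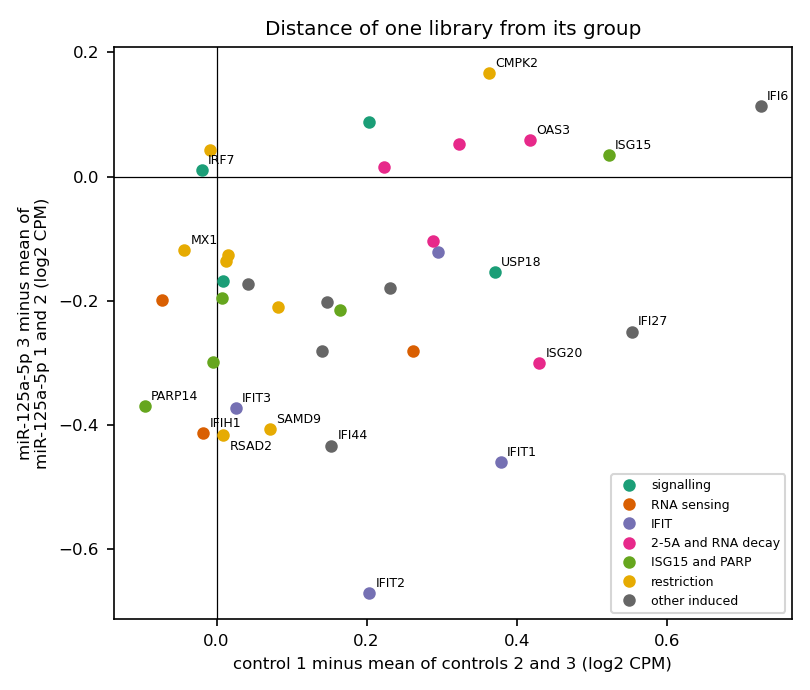
Each point is a member, coloured by role, placed by the distance of control library 1 from the mean of control libraries 2 and 3 (horizontal, log2 CPM) and of miR-125a-5p library 3 from the mean of miR-125a-5p libraries 1 and 2 (vertical, log2 CPM). IFI6 and ISG15 lie far right near the zero line, IFIT2 lies lowest, and IFIT1 is displaced on both axes.

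The rest of the pathway was described from lists of non-members. Of 22 interferon genes, 17 had 0 counts in every library, which allows up to 3 counts in a library, or 0.321 to 0.363 CPM with the miR-125a-5p mimic and 0.292 to 0.356 CPM with the control mimic, for counting error only. IFNB1 had 2, 5 and 1 counts in miR-125a-5p libraries 1 to 3 and 3, 3 and 6 in control libraries 1 to 3, too few for a comparison. Among 16 genes of receptors, kinases and inhibitors, 14 were tested, with 10 negative and 4 positive log2 fold changes, a median of -0.049 and 0 called. The receptor chain IFNAR2, with the smallest p of the list, had a log2 fold change of -0.16 (SE 0.098) with an edgeR adjusted p of 0.884. Among 19 genes of nucleic acid sensing and interferon induction, 12 were negative and 7 positive, with a median of -0.058 and 0 called. The smallest p there was that of MAVS, the adaptor of RIGI and IFIH1, at 82.7 ± 8.15 CPM with the miR-125a-5p mimic and 95.5 ± 9.62 CPM with the control mimic (SD, n = 3 each), a log2 fold change of -0.21 (SE 0.11) and an edgeR adjusted p of 0.857.

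Other interferon-stimulated genes, 58 in all and all tested, leaned the same way as the members. Of these 50 had a negative log2 fold change, the median was -0.18, 0 were called, and 23 were lower and 0 higher at an unadjusted p under 0.05 (backgrounds as above). Without control library 1 their median was -0.12, and without miR-125a-5p library 3 as well -0.068. The smallest p were those of CXCL10, a chemokine, GBP1, a guanylate-binding protein, and GBP4. CXCL10 had 82.9, 83.9 and 56.5 CPM in miR-125a-5p libraries 1 to 3, against 176, 121 and 90.9 CPM in control libraries 1 to 3, with a log2 fold change of -0.80 (SE 0.17) and an edgeR adjusted p of 0.136, and -0.51 without control library 1. GBP1 had 169.6, 185 and 143 CPM with the miR-125a-5p mimic and 231, 252 and 207 CPM with the control mimic, with -0.47 (SE 0.10), an edgeR adjusted p of 0.165 and no overlap of the groups. Its log2 fold change was -0.47 without control library 1, and GBP4 went to -0.29 from -0.42 (SE 0.12). Whether these genes differ from the members was not tested.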

How the data were processed

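For 6 THP-1 libraries the authors deposited unnormalized read counts (whole numbers) for 26347 NCBI gene identifiers. The submitters' processing notes name hg19, TopHat, bcl2fastq and edgeR. Which counting tool, annotation and strand setting were used is not given in the sources used here. Symbols came from a RefSeq table (GRCh38.p14, names only), which matched 99.46% of rows. Depth was 8256149 to 10257791 counts per library, which limits precision for rows with few counts.

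The test was run in edgeR 4.0.16 (R 4.3.3), with filterByExpr (14731 of 21274 genes with any count), trimmed mean of M-values, glmQLFit and glmQLFTest without covariates on all 6 libraries, Benjamini-Hochberg over all tested genes, threshold 0.05. The SE is the size of the log2 fold change divided by the square root of F. Log2 CPM used a prior count of 2. Steps were checked on simulated counts. Alternatives were other scaling factors, no count filter, DESeq2 1.42.0, limma 3.58.1 voom, the likelihood ratio test, a replicate block, and each library left out. Leaving out control library 1 and miR-125a-5p library 3 together was chosen after seeing the data.

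The members and lists were chosen with earlier results of these data known, so no list was tested as a set. Values in each library are given for the 2 members of each of the 7 role groups with the smallest p, the most abundant one, the 4 that move most and least without control library 1, and those with a seed match of 7 or 8 bases. Of each non-member list up to 3 genes with the smallest p are named, and IFNB1 and the library values of CMPK2 were chosen after their values were seen. Seed matches used 3′ UTRs of at least 20 bases.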

Additional observations from a re-analysis of the deposited data

How the results depend on the processing

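The direction of all 36 members was negative under each of the 8 alternatives that keep all libraries, and the median log2 fold change of the members stayed between -0.15 and -0.14 in them. The count of genes called lower was 4 and higher 0. It was 41 and 11 without the count filter, 11 and 2 by DESeq2, and 17 and 4 by the likelihood ratio test. Leaving out 1 library gave 3 to 14 lower (14 without control library 3) and 0 to 2 higher (2 without miR-125a-5p library 3), and leaving out both control library 1 and miR-125a-5p library 3 gave 14 and 19. Of the members 0 were called lower; it was 1 (IFI6) without the count filter, 0 to 1 when 1 library was left out (1 without control library 3), and 0 were called higher in any fit. The causes were not tested. Same-numbered libraries did not deviate together (correlations of 0.056, 0.014 and -0.016), so the numbers were not taken as pairs. With the replicate block 9 genes were lower, 0 higher and 0 members called, and the members' median was -0.15. With 1 library left out the members' median was -0.20 to -0.075 and 30 to 36 members were negative; without both libraries it was -0.034 with 26 negative. Fits with 1 library left out ranged over 0 in 10 members: IRF9 -0.13 to 0.032, USP18 -0.17 to 0.069, IFIH1 -0.14 to 0.062, DDX60 -0.14 to 0.031, OAS2 -0.18 to 0.0066, OAS3 -0.25 to 0.012, HERC6 -0.088 to 0.067, PARP14 -0.13 to 0.053, SAMD9 -0.11 to 0.082, IFI44 -0.21 to 0.020. Without both libraries the log2 fold change was 0.12 for USP18, 0.019 for RIGI, 0.056 for IFIH1, 0.0073 for DDX60, 0.078 for IFIT1, 0.065 for HERC6, 0.022 for PARP14, 0.11 for SAMD9, 0.073 for IFI44, 0.0050 for IFI44L. Over the fits with 1 library left out RIGI ranged from -0.27 to -0.070, IFIT1 from -0.29 to -0.060 and IFI44L from -0.19 to -0.046. Members with control library 1 highest numbered 22 also with library totals alone. Depth gave every member at least 232 counts in each library.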
